A study of Mus musculus with 12 samples.

Results

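Chemokine transcripts were measured in cultured mouse oligodendrocyte precursor cells (OPCs, the dividing glial cells that give rise to myelinating oligodendrocytes) after treatment with the cytokine IFN-γ or the glucocorticoid dexamethasone. The 10 genes were chosen by name out of 55536 annotated genes: Cxcl9, Cxcl10, Cxcl11, Cxcl16, Cx3cl1, Cxcl12, Cxcl1, Ccl2, Ccl5 and Ccl7. Earlier results of these data were known when they were chosen. The design had 3 groups of 4 libraries. These were untreated cultures (Ctr-OPCs), cultures given 1 µM dexamethasone (Dexa-treated OPCs) and cultures given IFN-γ at 100 ng/ml (IFN-γ-treated OPCs). Both treatments lasted 48 h, and the labels give no time for the untreated cultures. Each culture was started from the brains of several pups aged P4 to P6 and kept in medium with PDGFaa and bFGF. OPCs were taken either by GFP in the line Sox10:Cre-RCE:LoxP(EGFP), where the Sox10 promoter drives Cre and so marks the whole oligodendrocyte lineage, or by magnetic beads against CD140a, and the labels do not say which was used for which library. Replicates 1 to 4 of a group came from different litters. The labels do not say that the same number in different groups is the same litter, but libraries of the same number varied together, and litters 1 to 4 below stand for replicate numbers 1 to 4. The titles of replicates 3 and 4 share a prefix whose meaning the labels do not give. The labels of every library name EAE, a mouse model of multiple sclerosis, although the protocol describes cells from pups only.

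Chemokines are small secreted or membrane-anchored proteins that guide leukocytes and other cells through G protein-coupled receptors. CXCL9, CXCL10 and CXCL11 share the receptor CXCR3 of activated T cells and are textbook targets of interferon. CX3CL1 (fractalkine) and CXCL16 are made as membrane-anchored proteins that proteases can release, CXCL12 is a constitutive ligand of CXCR4 and ACKR3, CCL2, CCL5 and CCL7 attract monocytes or T cells, and CXCL1 attracts neutrophils.

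In IFN-γ-treated OPCs 7 of the 10 genes rose: the CXCR3 ligands Cxcl9, Cxcl10 and Cxcl11 from almost no reads, and Cxcl12, Ccl2, Cxcl16 and Cx3cl1 from levels already measured in Ctr-OPCs. Cxcl10 reached the highest level of the 10, while Cx3cl1, which led in Ctr-OPCs, had the smallest fold change of the 7. In Dexa-treated OPCs none of the 7 passed the test, and Ccl2 was higher than Ctr-OPCs of the same litter in 4 of 4 litters. Ccl5, Ccl7 and Cxcl1 had a few reads per library in most libraries and could not be tested with the rest. Ccl7 and Cxcl1 were called higher after IFN-γ only in a fit without the filter on low counts.

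Values below are normalized counts (reads of a gene divided by the size factor of its library) unless TPM is named. Reads in genes numbered between 19209063 and 52074652 in 11 complete libraries. The deposited table of Dexa replicate 3 stopped after 33.7% of the transcripts and listed 4 of the 10 genes, so most Dexa values come from 3 libraries. Differences were tested with DESeq2 with the litter as a block over 17919 genes that had at least 10 reads in at least 4 libraries, and are given as log2 fold change ± standard error with the Benjamini-Hochberg adjusted p. The same quantity from edgeR's quasi-likelihood test, also with the litter as a block, follows where it is given as edgeR. In bulk RNA, a change in the number of cells that make a transcript and a change in RNA per cell cannot be told apart.

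Markers of the labelled cell type were present in every library. The 8 OPC genes summed to 929.6 to 2055 TPM in Ctr-OPCs, 1132 to 2191 in Dexa-treated OPCs and 767.6 to 1601 in IFN-γ-treated OPCs. After IFN-γ 5 of the 8 were called lower than in Ctr-OPCs (15.2% of all tested genes were called higher and 14.1% lower). None of these 5 calls was kept without the litter block (DESeq2 adjusted p from 0.118 to 0.642). After Dexa 2 of the 8 were called higher with DESeq2 and 1 with edgeR, where 2.57% and 1.57% of all tested genes were called in either direction. The 15 microglia genes, a cell type known to make chemokines, summed to 3.55 to 5.66 TPM in Ctr-OPCs, 4.58 to 5.40 in Dexa-treated OPCs and 5.14 to 7.69 in IFN-γ-treated OPCs, and 0 of the 4 that could be tested were called in any comparison with DESeq2 or edgeR, or had an unadjusted p under 0.05 with DESeq2. The 6 lymphocyte genes summed to at most 0.120 TPM in every library. The 8 astrocyte genes, of which 7 were tested, summed to 123.2 to 308.2 TPM in Ctr-OPCs, 268.5 to 464.7 in Dexa-treated OPCs and 266.3 to 433.5 in IFN-γ-treated OPCs. After IFN-γ 5 were called higher (edgeR 4) and 1 lower, and after Dexa 2 were called higher (edgeR 1). After IFN-γ Gfap changed most (4.10 ± 0.34 on the log2 scale, DESeq2 adjusted p = 2.09e-32), and Aqp4 was the 1 called lower (-0.81 ± 0.18, 5.23e-05). Gfap kept its call without the litter block (DESeq2 adjusted p = 3.98e-09) and Aqp4 did not (0.208). The 5 fibroblast genes summed to 0.0806 to 2.98 TPM in Ctr-OPCs, 0.204 to 1.44 in Dexa-treated OPCs and 0.220 to 2.21 in IFN-γ-treated OPCs, and after IFN-γ Lum was called higher (4.18 ± 0.46 on the log2 scale, DESeq2 adjusted p = 2.22e-18) and Col3a1 lower (-1.36 ± 0.32, 1.3e-04). The 8 endothelial and mural genes summed to 0.631 to 0.843, 0.742 to 1.55 and 0.602 to 0.922 TPM in the same order, with Kdr called lower after IFN-γ and Flt1 higher after Dexa. The 7 neuron genes summed to 3.34 to 5.40, 5.22 to 7.49 and 4.11 to 6.67 TPM, with Syt1 called higher and Snap25 and Gad1 lower after IFN-γ and Snap25 higher after Dexa. Without the litter block DESeq2 kept the calls of Lum, Syt1 and Flt1. It lost those of Col3a1 (adjusted p = 0.657), Kdr (0.0806), Gad1 (0.194) and Snap25 (0.439 after IFN-γ, and also after Dexa). The marker genes named from these 3 lists are those called with DESeq2, and Gfap and Aqp4 are 2 of those called in the astrocyte list. All were picked after their values were seen. Whether other cells in the cultures contributed to the chemokine transcripts was not tested.

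A promoter window was matched for 5 of the 10 genes, and 4 are shown because they differ in their measured response: Cxcl10 and Cxcl9 rose from almost no reads, Cxcl12 rose from a measured level and Cxcl1 stayed near the limit of detection. The sequences are from RefSeq (GRCm38.p6), 250 bases up to the annotated start, given 5′ to 3′ on the strand of the gene. Capitals mark matches, on either strand, to TTTC and TTTC with 2 bases of any kind between (a minimal interferon-stimulated response element, ISRE) or to GGG, 3 bases of any kind, T, 1 base of any kind and CC (an NF-κB-type motif, κB). Cxcl10 lies at chr5:92348890-92349139 on the minus strand, Cxcl9 at chr5:92328080-92328329 on the minus strand, Cxcl12 at chr6:117168285-117168534 on the plus strand and Cxcl1 at chr5:90890995-90891244 on the plus strand.
Cxcl10: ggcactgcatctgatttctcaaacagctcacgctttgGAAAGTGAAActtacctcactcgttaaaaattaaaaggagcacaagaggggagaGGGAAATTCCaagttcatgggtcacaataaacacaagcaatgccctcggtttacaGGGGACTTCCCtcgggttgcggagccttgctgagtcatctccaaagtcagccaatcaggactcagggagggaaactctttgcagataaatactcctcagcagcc
Cxcl9: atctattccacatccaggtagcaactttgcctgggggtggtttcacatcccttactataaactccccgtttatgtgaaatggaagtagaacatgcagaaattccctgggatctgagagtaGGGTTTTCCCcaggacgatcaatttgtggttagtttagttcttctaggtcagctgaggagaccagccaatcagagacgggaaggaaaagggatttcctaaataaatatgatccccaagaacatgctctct
Cxcl12: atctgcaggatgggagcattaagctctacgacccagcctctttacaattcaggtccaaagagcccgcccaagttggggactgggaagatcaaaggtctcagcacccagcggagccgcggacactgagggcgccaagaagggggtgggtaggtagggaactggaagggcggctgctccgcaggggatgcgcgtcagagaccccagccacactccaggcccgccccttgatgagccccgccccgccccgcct
Cxcl1: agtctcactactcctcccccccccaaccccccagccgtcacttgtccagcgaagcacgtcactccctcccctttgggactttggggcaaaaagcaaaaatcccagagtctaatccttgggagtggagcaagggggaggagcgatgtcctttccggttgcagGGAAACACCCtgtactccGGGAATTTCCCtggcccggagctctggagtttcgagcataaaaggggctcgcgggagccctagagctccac

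The Cxcl10 window held 1 ISRE match, GAAAGTGAAA, beginning 213 bases before the start, and 3 κB matches beginning 159, 104 and 103 bases before it, the last 2 of which overlap. The Cxcl9 window held 1 κB match, GGGTTTTCCC, beginning 130 bases before the start. Cxcl1, which was hardly detected, held 3 κB matches, beginning 89, 71 and 70 bases before the start. The windows of Cxcl12 and Cx3cl1 held no match. The Cx3cl1 window (chr8:94771930-94772179, plus strand) runs past 94772009, where the leading transcript Cx3cl1-201 begins. It therefore covers the bases before that start only in part. An ISRE match occurred in 2.98% and a κB match in 14.9% of 32851 promoter windows of the same length. Matches to GNACA and TGTNC with 3 bases of any kind between, the glucocorticoid response element (0.387% of windows), were found in 0 of the 5 windows looked at. A match is a run of letters and not a measured binding site.

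**Figure D1:**
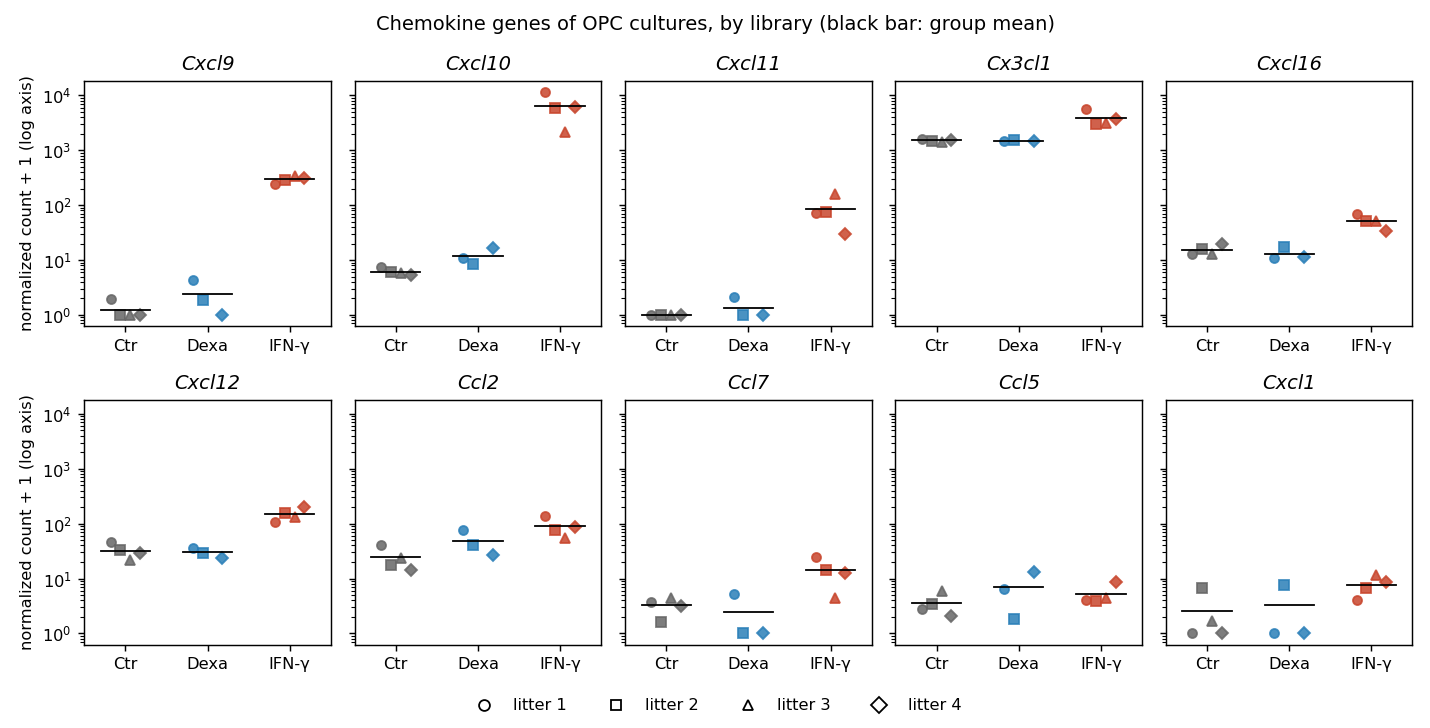
Normalized count plus 1 (log axis) of each of the 10 chemokine genes in the 11 complete libraries, by group, with the marker shape giving the litter and the black bar the group mean. Cxcl9, Cxcl10 and Cxcl11 sit at 15.7 or less in all Ctr and Dexa libraries and at 28.2 or more in all IFN-γ libraries, and Ccl5 and Cxcl1 overlap between the groups.

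The CXCR3 ligands lie side by side on chromosome 5 (GRCm38), with Cxcl9 (ENSMUSG00000029417) at 92321347-92328079, Cxcl10 (ENSMUSG00000034855) at 92346638-92348889 and Cxcl11 (ENSMUSG00000060183) at 92359544-92365485, all on the minus strand. Cxcl10 had 7, 8, 7 and 4 estimated reads in Ctr-OPCs of litters 1 to 4, and 11541, 6380, 1864 and 4825 in IFN-γ-treated OPCs. As normalized counts these were 6.43, 4.96, 4.82 and 4.34 before and 11467, 6022, 2173 and 6194 after treatment. The groups lay far apart, and the treated cultures spread widely, with litter 3 the lowest and litter 1 the highest. The log2 fold change of Cxcl10 was 10.09 ± 0.49 (DESeq2 adjusted p = 1.3e-92, edgeR 5.81e-11), and the fold against Ctr-OPCs of the same litter was 1785, 1215, 450.6 and 1426. The mean level of Cxcl10 was 186.7 ± 95.2 TPM (SD, n = 4) in IFN-γ-treated OPCs against 0.125 ± 0.0616 TPM (SD, n = 4) without treatment.

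Cxcl9 had 1 read in Ctr-OPCs of litter 1 and 0 in the other 3, and 246, 303, 290 and 239 reads in IFN-γ-treated OPCs. The treated cultures held 244.4, 286.0, 338.0 and 306.8 normalized counts, a mean of 293.8 ± 39.3 (SD, n = 4). With 1 read in the lower group the size of the change is poorly fixed: the ratio of summed reads was 1478, with an exact binomial 95% interval of 264.7 to 58436 that covers counting error only. DESeq2 gave Cxcl9 an adjusted p of 3.58e-14 and edgeR 3.48e-08. The coefficient of variation between litters was 13.4% for Cxcl9, against 59.1% for Cxcl10 and 64.8% for Cxcl11 in the same 4 cultures.

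Cxcl11 had 0 reads in all 4 Ctr libraries and 72, 80, 135 and 22 in IFN-γ-treated OPCs. These were 71.5, 75.5, 157.3 and 28.2 normalized counts, a mean of 83.2 ± 53.9 (SD, n = 4), at least 141.2-fold higher than a floor of 3 reads over the Ctr group. The test gave an adjusted p of 7.88e-15 with DESeq2 and 1.44e-05 with edgeR. DESeq2 lost the call without IFN-γ replicate 2 (adjusted p = 0.0870), without IFN-γ replicate 3 (0.106), without IFN-γ replicate 4 (0.0513) and without replicate 1 of every group (0.0685), while the fold stayed at 8.56 to 9.44 on the log2 scale. Litter 3, the lowest of the 4 treated cultures in Cxcl10, was the highest in Cxcl11 and Cxcl9, and litter 4, close to the mean in Cxcl10 and Cxcl9, was the lowest in Cxcl11. The annotation used by the deposited tables lists mouse Cxcl11 as a polymorphic pseudogene, a gene whose coding sequence is intact in only some strains.

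The 3 CXCR3 ligands had to differ to enter the test at all, because they reached 10 reads only in IFN-γ libraries. Art3, a gene on the opposite strand that spans Cxcl10 and Cxcl11, had 5, 5, 3 and 2 reads in Ctr-OPCs, 2, 2 and 1 in Dexa-treated OPCs and 66, 51, 42 and 36 in IFN-γ-treated OPCs. The kit keeps the strand, but the setting used for counting is not given in the sources used here, so reads of such overlapping pairs may be shared. In IFN-γ-treated OPCs the reads of Cxcl10 were above those of Art3 in all 4 litters. Those of Cxcl11 were above Art3 in litter 2 (80 against 51) and litter 3 (135 against 42), close to it in litter 1 (72 against 66) and below it in litter 4 (22 against 36). How many of the Cxcl11 reads belong to Art3 was not tested.

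Cxcl10 also showed a litter difference in the kind of transcript. Of its estimated reads in IFN-γ-treated OPCs, the coding transcript Cxcl10-201 took 92.2%, 91.1%, 69.9% and 92.1% in litters 1 to 4. The transcript Cxcl10-203, annotated as retaining an intron, took 3.84%, 4.06%, 18.4% and 2.38%, and Cxcl10-204, of the same kind, took 3.26%, 3.73%, 9.30% and 4.32%. Litter 3, with the fewest Cxcl10 reads, thus had the largest shares on transcripts with an intron. As reads rather than shares, Cxcl10-203 had 443.6, 258.8, 343.1 and 114.9, so litter 3 was second highest there. Shares in Ctr and Dexa libraries rest on 4 to 9 reads each and were not compared.

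**Figure D2:**
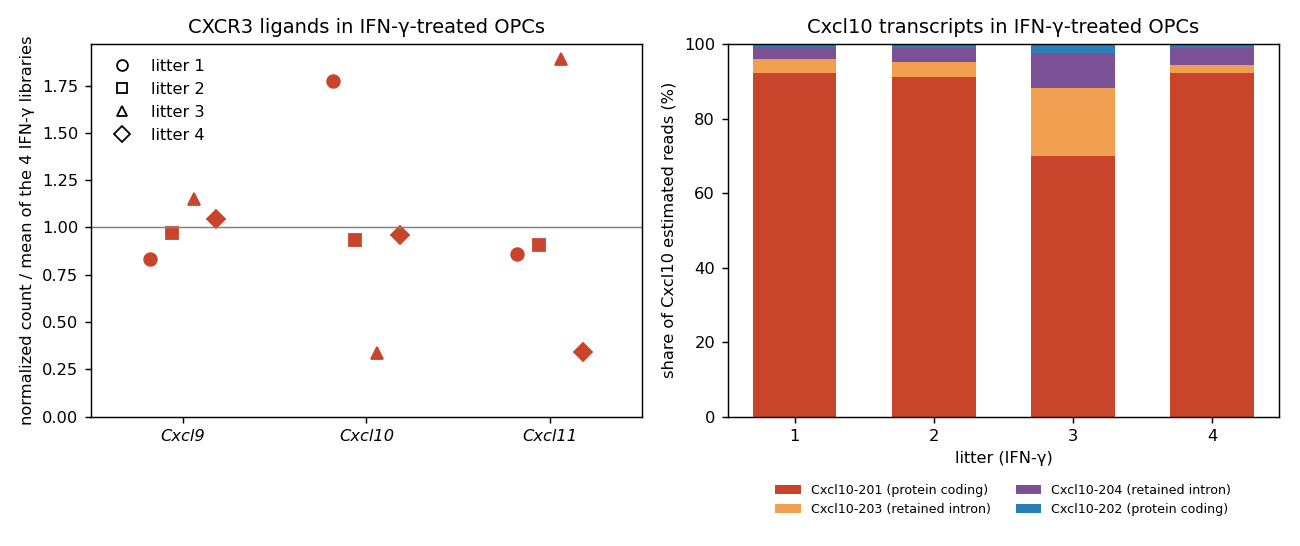
Left, normalized count of Cxcl9, Cxcl10 and Cxcl11 in each IFN-γ library divided by the mean of the 4 (vertical axis, no unit), with the marker shape giving the litter; right, share of Cxcl10 estimated reads on each transcript in the same libraries (percent). Cxcl9 lies close to its mean in all 4 litters, litter 3 is lowest in Cxcl10 and highest in Cxcl11, and its share on Cxcl10-201 is 69.9% against 91.1% to 92.2% in the others.

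Cx3cl1 (ENSMUSG00000031778, chromosome 8, 94772009-94782427, plus strand), which encodes the neuron-to-microglia ligand fractalkine, was the most abundant of the 10 genes without treatment, at 9.35 ± 0.305 TPM (SD, n = 4). Its normalized counts were 1604, 1470, 1431 and 1569 in Ctr-OPCs and 5713, 2987, 3154 and 3786 in IFN-γ-treated OPCs. The groups did not overlap, and litter 1 stood above the other 3 treated cultures. The rise was 1.33 ± 0.13 on the log2 scale (DESeq2 adjusted p = 3.34e-22, edgeR 5e-05), and 3.56-, 2.03-, 2.20- and 2.41-fold in litters 1 to 4. The leading transcript, Cx3cl1-201, held 99.6% ± 0.0374 (SD, n = 4) of its reads in treated cultures and 99.6% ± 0.0308 (SD, n = 4) in untreated ones, a share with almost no room to rise.

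Cxcl16 (ENSMUSG00000018920, chromosome 11, 70453983-70459984, minus strand), the other membrane-anchored ligand, had 11.9, 14.9, 11.7 and 18.5 normalized counts in Ctr-OPCs and 68.6, 51.0, 50.1 and 33.4 in IFN-γ-treated OPCs. All treated libraries were above all Ctr libraries, with litter 4 changing least, by 1.81-fold, and litter 1 most, by 5.75-fold. The log2 fold change was 1.84 ± 0.38 (DESeq2 adjusted p = 9.85e-06, edgeR 6.31e-04). Zmynd15, which overlaps Cxcl16 on the opposite strand, had a mean of 4.70 reads in Ctr-OPCs and 9.80 in IFN-γ-treated OPCs.

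Cxcl12 (ENSMUSG00000061353, chromosome 6, 117168535-117181367, plus strand), which is usually made constitutively by stromal cells, had 45.0, 31.6, 20.7 and 28.2 normalized counts in Ctr-OPCs and 104.3, 154.8, 132.9 and 199.0 in IFN-γ-treated OPCs. It was higher in all treated libraries, by 2.26 ± 0.29 on the log2 scale (DESeq2 adjusted p = 7.01e-14, edgeR 8.05e-05). Litter 1, highest in Ctr-OPCs and lowest after treatment, changed 2.32-fold, against 4.90-, 6.43- and 7.05-fold in litters 2 to 4.

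Ccl2 (ENSMUSG00000035385, chromosome 11, 82035571-82037453, plus strand), the monocyte attractant MCP-1, had 40.4, 16.7, 22.7 and 13.0 normalized counts in Ctr-OPCs and 136.1, 75.5, 54.8 and 86.0 in IFN-γ-treated OPCs. The groups did not overlap, and litter 1 was the highest in both. The log2 fold change was 1.95 ± 0.29 (DESeq2 adjusted p = 2.56e-10, edgeR 1.13e-04), or 3.37-, 4.51-, 2.41- and 6.60-fold by litter. Without the litter block the same comparison gave an adjusted p of 2.71e-04 with DESeq2 and 0.0193 with edgeR.

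With DESeq2 and with edgeR, 7 of the 7 genes tested were called higher in IFN-γ-treated OPCs, where 15.2% (DESeq2) and 16.0% (edgeR) of all tested genes were. Of these 7, 3 (Cxcl9, Cxcl10 and Cxcl11) passed the filter only through IFN-γ libraries and so had to differ. The 4 genes among them that passed the filter through Ctr libraries too were Cxcl16, Cx3cl1, Cxcl12 and Ccl2. All were chosen with earlier results of these data known, so the count is a description. Without a filter on low counts 9 of 10 were called higher, where 8.06% of 33403 genes were. In 8 of the 10 genes every IFN-γ library was above every Ctr library, the exceptions being Ccl5 and Cxcl1. Of the tested genes 8.66% were separated in this way. The 2 sets differ, since the 8 include Ccl7, which did not pass the filter. Its lowest IFN-γ value was 3.50 normalized counts and its highest Ctr value 3.44.

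The 3 remaining genes had too few reads for the filter. Ccl7 (ENSMUSG00000035373, chromosome 11, 82045712-82047525, plus strand), a monocyte attractant next to Ccl2, had 3, 1, 5 and 2 reads in Ctr-OPCs and 24, 14, 3 and 9 in IFN-γ-treated OPCs. The fit without a filter gave 2.50 ± 0.93 on the log2 scale (DESeq2 adjusted p = 0.0323), but litter 3 had 3.50 normalized counts after treatment and 3.44 before. Against Dexa-treated OPCs of the complete libraries, which held 4 reads in all, the ratio of summed Ccl7 reads was 9.07 (exact binomial 95% interval 3.33 to 34.6, counting error only), and the fit without a filter gave 3.67 ± 1.26 (DESeq2 adjusted p = 0.0163). Cxcl1 (ENSMUSG00000029380, chromosome 5, 90891241-90893115, plus strand) had 0, 9, 1 and 0 reads in Ctr-OPCs, 0, 8 and 0 in Dexa-treated OPCs of litters 1, 2 and 4, and 3, 6, 9 and 6 in IFN-γ-treated OPCs. The same fit gave it 3.39 ± 1.29 (DESeq2 adjusted p = 0.0378), with groups that overlap, and in litter 2 the treated and untreated cultures differed 1.02-fold. Ccl5 (ENSMUSG00000035042, chromosome 11, 83525778-83530518, minus strand), the T cell attractant RANTES, had 2, 4, 7 and 1 reads without treatment and 3, 3, 3 and 6 with IFN-γ, which differ by 0.57 ± 0.96 on the log2 scale (DESeq2 adjusted p = 0.772).

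**Figure D3:**
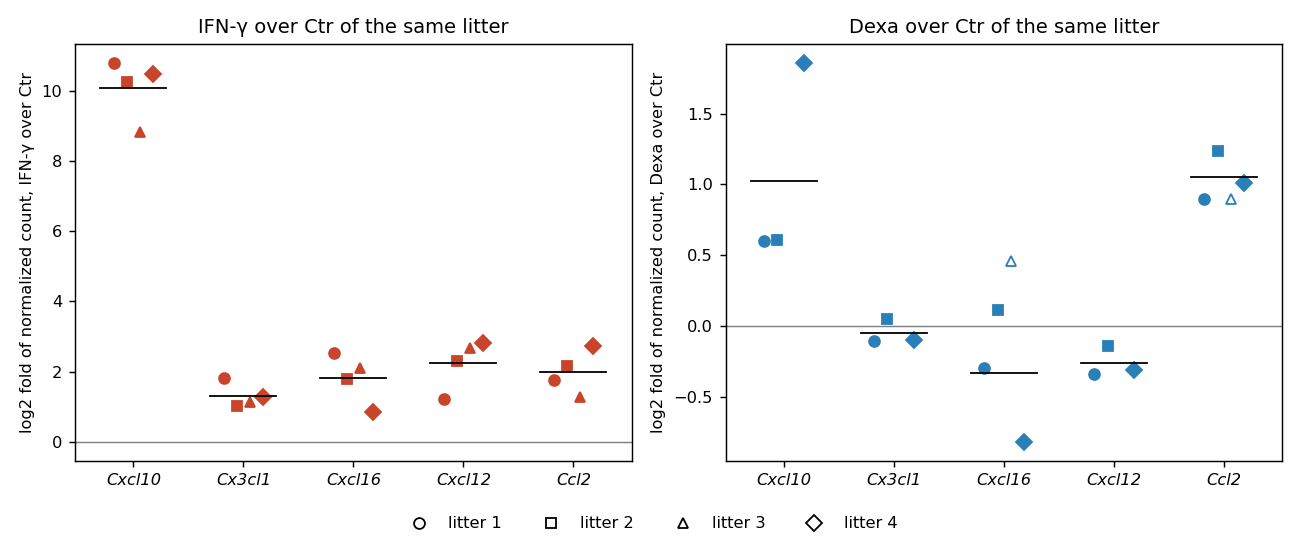
Log2 fold of the normalized count in IFN-γ-treated (left) or Dexa-treated (right) OPCs over Ctr-OPCs of the same litter, for the 5 genes with enough reads in Ctr-OPCs; filled markers are complete libraries, black bars their mean, and open triangles Dexa replicate 3 scaled over the genes that all 12 libraries list. All 20 IFN-γ points lie above 0, and Ccl2 in Dexa-treated OPCs lies between 0.90 and 1.24 in the 4 litters.

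Dexamethasone is an anti-inflammatory steroid that acts through the glucocorticoid receptor. Of 6 genes listed as a check of the glucocorticoid response, 3 were called higher after it with DESeq2 and 3 with edgeR. Per1 was higher by 1.60 ± 0.10, Fkbp5 by 1.41 ± 0.08 and Tsc22d3 by 0.81 ± 0.17 on the log2 scale (DESeq2 adjusted p = 1.87e-52, 4.78e-75 and 0.0001). Without the litter block DESeq2 kept the calls of Per1 and Fkbp5 and lost that of Tsc22d3 (adjusted p = 0.0884). Dusp1 (0.03 ± 0.15), Zfp36 (0.33 ± 0.19) and the receptor gene Nr3c1 (-0.18 ± 0.09) were not called. After IFN-γ 2 of the same 6 genes were called higher, where 15.2% of all tested genes were. These were Zfp36 (0.92 ± 0.16, DESeq2 adjusted p = 1.78e-07) and Tsc22d3 (0.43 ± 0.15, 0.0155). The latter call was lost without the litter block (DESeq2 adjusted p = 0.319). Of the chemokine genes tested, 0 of 7 were called in Dexa-treated OPCs by DESeq2 and 0 of 7 by edgeR, against 2.57% and 1.57% of all tested genes in either direction. At an unadjusted p under 0.05 there was 1, Ccl2.

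Ccl2 had 75.6, 39.6 and 26.2 normalized counts in Dexa-treated OPCs of litters 1, 2 and 4. Each was above Ctr-OPCs of the same litter, by 1.87-, 2.37- and 2.01-fold, although the groups overlap, since Ctr-OPCs of litter 1 (40.4) lay above Dexa-treated OPCs of litters 2 and 4. The log2 fold change was 0.92 ± 0.33 with a 95% interval of 0.26 to 1.57 (DESeq2 adjusted p = 0.155, edgeR 0.180). Ccl2 is among the genes that the incomplete library lists whole, and over the genes listed by all 12 libraries its litter 3 value was 39.9 in Dexa-treated OPCs and 21.5 in Ctr-OPCs, 1.86-fold. In that fit of 6319 genes, where 3.59% were called in either direction, Ccl2 was 0.99 ± 0.30 higher (DESeq2 adjusted p = 0.0282). Without the litter block the adjusted p was 1.00 with DESeq2 and with edgeR over the 11 complete libraries.

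Cxcl10 had 9 reads in each of the 3 complete Dexa libraries and 4 to 8 in Ctr-OPCs, or 9.71, 7.58 and 15.7 against 4.34 to 6.43 normalized counts. The groups did not overlap, as in 2.58% of the tested genes in the higher direction, but the test was not passed (0.73 ± 0.59, DESeq2 adjusted p = 0.895). Cx3cl1 had 1490, 1521 and 1462 normalized counts in Dexa-treated OPCs, or 0.929, 1.03 and 0.932 times Ctr-OPCs of the same litter, and its log2 fold change of -0.08 had a 95% interval of -0.37 to 0.21. Cxcl12 had 35.6, 28.6 and 22.7 (log2 fold change -0.18, interval -0.86 to 0.51). Cxcl16 had 9.71, 16.0 and 10.5 (log2 fold change -0.26, interval -1.19 to 0.67) and, with litter 3, a fold change of -0.13 ± 0.42 in the fit with 12 libraries. Cxcl9 had 3, 1 and 0 reads, Cxcl11 had 1, 0 and 0, Ccl7 had 4, 0, 3 and 0, and Ccl5 had 5, 1, 3 and 7, the last 2 with litter 3 included.

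The treatments were also compared with each other. All 7 tested genes were called higher in IFN-γ-treated than in Dexa-treated OPCs with DESeq2 and with edgeR. Of all tested genes, 16.2% and 17.2% were. Of the 7, 3 (Cxcl9, Cxcl10 and Cxcl11) passed the filter only through IFN-γ libraries and so had to differ. The other 4 (Cxcl16, Cx3cl1, Cxcl12 and Ccl2) passed it through Ctr libraries too. The groups did not overlap for 6 of the 10 genes, the 3 CXCR3 ligands among them, against 11.2% of the tested genes. Ccl2 had the smallest difference, 1.03 ± 0.31 on the log2 scale (DESeq2 adjusted p = 0.00493, edgeR 0.00896). That call was lost without the litter block (adjusted p = 0.244 with DESeq2 and 0.301 with edgeR), where 6 of the 7 genes and 7.66% of all genes were called higher. It was also lost without Dexa replicate 4 (0.0714) or IFN-γ replicate 4 (0.0895), and without replicate 1 (0.0628), 2 (0.0586) or 4 (0.0776) of all groups. Cxcl9, with 4 reads in Dexa-treated OPCs, had a ratio of summed reads of 195.6 (exact binomial 95% interval 76.2 to 719.2). For Cxcl11, which had 1 read in Dexa-treated OPCs, the ratio of summed reads was 224.3 (exact binomial 95% interval 40.0 to 8887), and DESeq2 lost the call without Dexa replicate 1 (adjusted p = 0.202), without any 1 of the 4 IFN-γ libraries (0.171 to 0.263) and without replicate 1 of all groups (0.192). The log2 difference was 9.37 ± 0.53 for Cxcl10, 2.44 ± 0.34 for Cxcl12, 2.10 ± 0.46 for Cxcl16 and 1.41 ± 0.15 for Cx3cl1, with DESeq2 adjusted p from 3.43e-68 to 3.23e-05.

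Levels of different genes were compared as TPM, which is scaled for transcript length. In Ctr-OPCs Cx3cl1 (9.04 to 9.77 TPM) was above all others without overlap, and Ccl2 (0.338 to 1.11) was above the rest without overlap. Cxcl12, Ccl5, Cxcl16 and Cxcl10 followed at means of 0.146, 0.138, 0.128 and 0.125 TPM, with ranges that overlap, before Ccl7 (0.0691), Cxcl1 (0.0390) and Cxcl9 (0.00144). In IFN-γ-treated OPCs Cxcl10 led (82.9 to 312.6 TPM), followed without overlap by Cx3cl1 (19.2 to 39.6) and Cxcl9 (4.09 to 5.06). These sums include transcripts that retain an intron. The coding transcript Cxcl10-201 alone had 245.1, 144.8, 30.9 and 136.8 TPM in litters 1 to 4, and its litter 3 value lay within the range of Cx3cl1, although above Cx3cl1 of the same library (19.2). In litter 3 the short transcript Cxcl10-203 had more, 49.3 TPM. Of Cxcl9, the coding transcript Cxcl9-201 had 1.71 to 2.37 TPM and the intron-retaining Cxcl9-202 had 1.78 to 2.96. Ccl2 (1.62 to 4.58) overlapped with Cxcl9 above it and with Cxcl11 (0.257 to 1.71) below it, and Cxcl11, Cxcl12, Cxcl16 and Ccl7 overlapped with each other at means of 0.888, 0.696, 0.635 and 0.467 TPM. Ccl5 (0.169 to 0.514) overlapped with Ccl7 (0.106 to 0.824). Cxcl1 (0.0634 to 0.141) had the lowest mean, 0.120 TPM, and also overlapped with Ccl7. The TPM of the 10 genes added up to 10.7 ± 0.444 (SD, n = 4) without treatment. It came to 11.7 ± 0.983 (SD, n = 3) under dexamethasone and to 224.5 ± 104.5 (SD, n = 4) under IFN-γ.

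**Figure D4:**
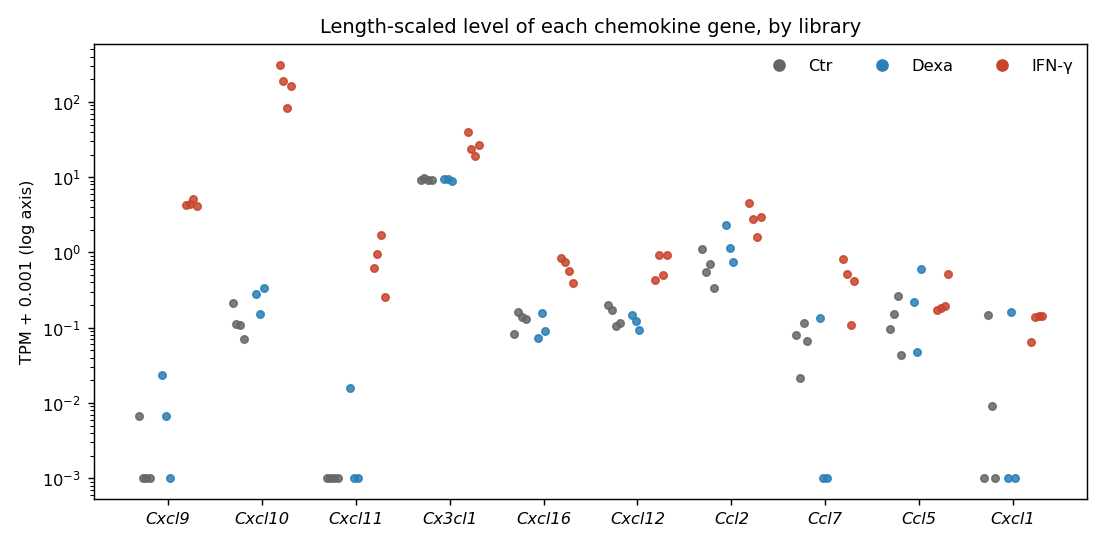
TPM plus 0.001 (log axis) of each chemokine gene in the 11 complete libraries, each point 1 library and each colour a group, so that levels can be compared between genes. Cx3cl1 is highest in Ctr and Dexa libraries at 9.03 to 9.77 TPM, and Cxcl10 is highest in IFN-γ libraries at 82.9 to 312.6 TPM.

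Most of the other chemokine ligand genes had few reads. Of 28 further ligand genes 4 had enough reads, Cxcl14, Ccl25, Ccl27a and Ccl28, and 0 of them were called in any comparison with DESeq2 or edgeR. At an unadjusted p under 0.05 there was 1, Cxcl14, in IFN-γ-treated OPCs against either other group. The median log2 fold change of the 4 was -0.09, against -0.01 over all tested genes. Cxcl14, a ligand made by many epithelia, had 169.0 ± 17.0 normalized counts in IFN-γ-treated OPCs and 128.5 ± 23.0 in Ctr-OPCs (SD, n = 4 each, 0.41 ± 0.19 on the log2 scale, DESeq2 adjusted p = 0.0976). In 20 of the 28, no Ctr library held more than 3 reads. Among the genes with too few reads to test, 2 had no read in any Ctr or Dexa library and more than 3 in at least 1 IFN-γ library. Ccl8, a monocyte attractant, had 3, 4, 5 and 4 reads in IFN-γ-treated OPCs (0.200 to 0.367 TPM), and Ccl12, a mouse relative of Ccl2, had 9, 5, 2 and 0 (up to 0.554 TPM). In TPM Ccl8 was above Cxcl11 of the same culture in litter 4 only (0.367 against 0.257), and Ccl12 was below it in all 4 litters. Both genes were picked after their values were seen.

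Of 23 chemokine receptor genes 6 were tested, and 1 rose and 1 fell in IFN-γ-treated OPCs, against 15.2% of all tested genes called higher and 14.1% lower. Ackr3, a scavenging receptor for CXCL12 and CXCL11, was higher by 0.82 ± 0.33 (DESeq2 adjusted p = 0.0469, edgeR 0.0300), and was not called without the litter block (DESeq2 adjusted p = 0.0692). Ackr4, a scavenger of CC chemokines, was at -1.05 ± 0.27 (DESeq2 adjusted p = 6.8e-04, edgeR 0.00924), a call lost without the litter block (DESeq2 adjusted p = 0.414). Cxcr4, the signalling receptor of CXCL12, had 196.9 ± 42.2 normalized counts against 239.4 ± 86.0 in Ctr-OPCs (SD, n = 4 each) and was not called. After dexamethasone 0 of the 6 receptors were called with DESeq2 or edgeR, and 0 had an unadjusted p under 0.05 with DESeq2. The median over the 6 was -0.02 on the log2 scale after IFN-γ.

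Among 9 genes whose products process or anchor chemokines, 6 were tested and 2 rose and 2 fell after IFN-γ (15.2% and 14.1% of all tested genes). Rhbdf2, which encodes iRhom2, a partner of the sheddase ADAM17, was higher by 2.39 ± 0.54 on the log2 scale (DESeq2 adjusted p = 6.79e-05) and had 24.6 ± 2.79 normalized counts against 4.89 ± 2.23 (SD, n = 4 each). At 0.0158 to 0.0637 TPM in Ctr-OPCs, the size of its change rests on few reads. Adam10, the main sheddase of CX3CL1 and CXCL16 in resting cells, was higher by 0.23 ± 0.07 (DESeq2 adjusted p = 0.0032). Adam17 fell by 0.18 ± 0.06 and Furin by 0.31 ± 0.11 (DESeq2 adjusted p = 0.0173 and 0.0294), and both calls were lost without the litter block (0.206 and 0.0596). The edgeR test called the same number, 2 in each direction, and the median over the 6 was -0.03.

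The list of upstream pathway genes reported here held 9 genes, which were all tested, and 4 rose and 1 fell after IFN-γ (15.2% and 14.1% of all tested genes), with a median of 0.00 on the log2 scale. Irf1 was higher by 6.02 ± 0.08 on the log2 scale, Jak2 by 1.16 ± 0.08, Jak1 by 0.64 ± 0.07 and Nfkbiz by 0.53 ± 0.14, and Ifngr1, a receptor chain for IFN-γ, fell by 0.28 ± 0.10 (DESeq2 adjusted p = 0.0197). The call of Nfkbiz was lost without the litter block (DESeq2 adjusted p = 0.395). Irf1 had 23607 ± 983.1 normalized counts (SD, n = 4) in the treated litters, a smaller spread relative to its mean than that of Cxcl10. Nfkbia, the inhibitor of NF-κB and a known glucocorticoid target, was the 1 pathway gene called after dexamethasone with DESeq2 (0.43 ± 0.13, adjusted p = 0.0223), and neither edgeR (0.0725) nor DESeq2 without the litter block (0.312) called it.

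The genes most alike in their levels were taken as the 3 with the highest Pearson correlation of log2(normalized count + 1) over the 11 complete libraries, given as a description. The points share their treatment, 4 libraries with IFN-γ and 7 without. For Cxcl10 they were Rmdn3 (r = 0.998), Znfx1 (0.995) and H2-DMb1 (0.995), and for Cxcl9 AA619741 (0.996), Uba7 (0.996) and Irgm2 (0.995). Cxcl11 was most like Gvin1 (0.987), Cxcl12 most like Eif2ak2 (0.989), Cx3cl1 most like Tgm2 (0.978), Cxcl16 most like Met (0.976) and Ccl2 most like Aldh1a1 (0.966). No gene was listed for more than 1 of the 7 tested chemokines.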

How the data were processed

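Total RNA of 12 mouse OPC cultures was depleted of ribosomal RNA and sequenced from both ends after a strand-specific library preparation. The authors quantified each library with Salmon (version 0.8.2 per the submitters' processing notes, which also name STAR and DESeq2), and deposited an estimated count and a TPM value per transcript. A further 3 tables hold the authors' DESeq2 comparisons (fold changes and p-values per gene) and were not used. Transcript identifiers matched Ensembl release 96 (GENCODE M21, GRCm38). The strand setting of the counting is not given in the sources used here.

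The expected counts as deposited were summed per gene and rounded, and TPM values were summed per gene. The filter kept genes that reached 10 counts in 4 or more libraries, and these were tested with DESeq2 1.42.0 (Wald test, replicate number and group, adjusted p under 0.05 by Benjamini-Hochberg) over 11 libraries. Dexa replicate 3, whose table ends early, was left out there and entered only a fit over the 19130 genes it lists whole. edgeR 4.0.16 (quasi-likelihood) with the same block was run beside it. The genes and lists were chosen with earlier results of these data known. One gene of the upstream list is not reported here. In addition to the chemokines, up to 5 called genes per direction are named from each list of chemokine biology. Differences between libraries of a group were far above sampling noise (chi-square per degree of freedom 23.5 to 224).

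Per the labels the replicates of a group came from different litters, and replicate numbers are shared between groups, but no label says that a number marks 1 litter. The pairing was taken from the data: deviations from the group mean correlated at 0.404 to 0.722 between libraries of the same number, against -0.614 to 0.495 otherwise, so the block was kept. The value of 0.495 was between Ctr replicate 3 and Dexa replicate 4, numbers whose titles share a prefix. It lies above that of Dexa and IFN-γ replicate 2 (0.404), so numbers 3 and 4 are told apart less clearly. Dexa replicate 3 was not in this comparison. On simulated counts for 17912 genes with 200 changed, DESeq2 with the block recovered 76.5% of 2-fold and 90% of 4-fold changes with 13.7% false calls, and edgeR 73.5% and 88% with 8.45%, both above the threshold of 0.05. Size factors ranged from 0.572 to 1.61. Intervals and floors cover counting error only, since PCR copies were not removed. Alternatives were no block, TMM factors, no filter on low counts, no independent filtering, the 2 groups alone, limma 3.58.1 on log2(TPM + 0.1), each library or replicate number left out, and the 12-library fit.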

Additional observations from a re-analysis of the deposited data

Results flagged for a closer look

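Among the 4 libraries of IFN-γ-treated OPCs, Ccl5 in replicate 4 lay far from the others, at 7.70 normalized counts against 2.83, 2.98 and 3.50. Its gap to the nearest library was 0.864 of the range, above Dixon's 95% critical value for 4 libraries. These values rest on 6 reads against 3, 3 and 3. Chance marks about 1 in 20 groups in this way.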

How the results depend on the processing

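The number of chemokine genes called higher after IFN-γ was 6 to 7 when each library or replicate number was left out, the number called after dexamethasone was 0 in each of these fits, and the number higher in IFN-γ-treated than in Dexa-treated OPCs was 5 to 7. In the fit of all 12 libraries, which tested only Cxcl16 and Ccl2 among the 10 genes, the counts were 2, 1 and 2. The replicate block changed the call of Ccl2 between IFN-γ-treated and Dexa-treated OPCs (log2 difference 0.89 without it, with DESeq2 and with edgeR) and no other call of the 7 tested genes in these 3 comparisons. Against Ctr-OPCs, the calls of Cxcl9, Cxcl10, Cxcl16, Cx3cl1, Cxcl12 and Ccl2 after IFN-γ were kept in every alternative run, and Cxcl11 lost its call in 4 leave-outs. Uncalled log2 changes after dexamethasone turned sign for Cxcl16 without Ctr replicate 4 (0.03, range over the leave-outs -0.55 to 0.03), Cx3cl1 without Dexa replicate 1 (0.06, range -0.23 to 0.06) and Cxcl12 without Ctr replicate 1 (0.12, range -0.38 to 0.12). On log2(TPM + 0.1) the change of Cxcl11 after IFN-γ was 3.07 and that of Cxcl9 5.48, by the construction of the added value. DESeq2 on the Ctr and Dexa libraries alone gave no adjusted p for the CXCR3 ligands and Cxcl16. The cause of the lost calls was not tested. Depth limits Cxcl1, Ccl5 and Ccl7, with at most 24 reads in a library.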
